A study of Mus musculus with 6 samples.

Results

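The 7 mature miRNAs described here, mmu-miR-423-3p, mmu-miR-423-5p, mmu-miR-674-3p, mmu-miR-674-5p, mmu-miR-128-3p, mmu-miR-139-5p and mmu-miR-139-3p, named below without the mouse prefix, are the arms of 4 miRNA families that were picked by name, because of strong falls under palmitic acid, from a table of 1976 mature mouse miRNAs. All 7 names were found in the table. The choice rests on the same comparison of palmitic acid with control libraries, so the levels and differences of these miRNAs are given as a description, without a test. The data did not bear out the choice for 1 of them: the mean of miR-674-5p was higher under palmitic acid, and only the other 6 were lower.

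Small RNA was sequenced from extracellular vesicles, which the labels call exosomes, of primary hepatocytes, the parenchymal cells of the liver, taken from wild-type C57BL/6J mice. The control group held 3 libraries from cells given 0 µM palmitic acid, the main saturated fatty acid of the diet, and the treated group held 3 libraries from cells given 600 µM. Neither the age of the mice nor the origin of the libraries from separate mice or dishes is given. The comparison asks which miRNAs of the vesicles differ when the hepatocytes take up palmitic acid, in a series whose title speaks of hepatic steatosis.

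A miRNA gene is transcribed into a hairpin, and Dicer cuts from it a duplex whose 5p and 3p strands can each be loaded into an Argonaute protein. The loaded strand binds transcripts mainly through its seed, bases 2 to 8, and lowers their translation or stability. The strand that is not loaded is mostly degraded, so the balance of the arms is usually stable in a cell type, although vesicles can carry both. miR-423 is broadly expressed and miR-423-5p is often found in plasma. miR-674 was described in rodents. miR-128 is best known from neurons, and miR-139 is often reported as lowered in liver cancer.

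The mature sequences are shown because the 7 miRNAs share no seed: they are 4 families with a different seed on each arm. The sequences are from RefSeq (GRCm38.p6), are written 5′ to 3′, and matched all 7 names. Capitals mark the seed.
miR-423-3p: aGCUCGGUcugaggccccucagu
miR-423-5p: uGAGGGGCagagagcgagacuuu
miR-674-3p: cACAGCUCccaucucagaacaa
miR-674-5p: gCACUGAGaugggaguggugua
miR-128-3p: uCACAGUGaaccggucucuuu
miR-139-5p: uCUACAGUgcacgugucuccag
miR-139-3p: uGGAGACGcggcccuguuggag

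The 3 hairpins that give both arms are shown with the mature arms in capitals, the 5p arm first, since the arm balance is described further on.
Mir423 (chr11:77078064-77078172, minus strand): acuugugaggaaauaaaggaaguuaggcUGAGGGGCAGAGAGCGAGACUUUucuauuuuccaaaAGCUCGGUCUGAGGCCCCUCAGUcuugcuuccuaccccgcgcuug
Mir674 (chr2:117185127-117185226, plus strand): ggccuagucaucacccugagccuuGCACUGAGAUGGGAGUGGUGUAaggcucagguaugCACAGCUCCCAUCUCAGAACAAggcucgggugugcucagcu
Mir139 (chr7:101475376-101475443, plus strand): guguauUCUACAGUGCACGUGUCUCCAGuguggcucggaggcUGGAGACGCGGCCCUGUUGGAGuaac

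In the GENCODE annotation of GRCm38, Mir423 lies in an intron of Nsrp1, which encodes a splicing regulator, and Mir139 in an intron of Pde2a, which encodes a cyclic nucleotide phosphodiesterase, and of the overlapping gene model Gm45837. miR-128-3p is cut from 2 hairpins with the same mature sequence: Mir128-1 (chr1:128202361-128202430, plus strand) in an intron of R3hdm1 and Mir128-2 (chr9:112118636-112118711, minus strand) in an intron of Arpp21. Reads of miR-128-3p therefore cannot be assigned to 1 of the 2 loci. Each of these hairpins is on the strand of its host gene, and Mir674 overlaps no other annotated gene.

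The deposited values are log2(adjusted count + 1). The adjusted count is a read number brought to a common scale by a factor fitted for each library. Read numbers were recovered from the deposited values, with totals of 95286 to 657897 in controls against 613432 to 799048 under palmitic acid. The factors did not follow these totals: control replicates 1 and 2, with 95286 and 657897 reads, had 0.322 and 0.369. The deposited scale is therefore not a scaling to read totals. The hepatocyte miRNA miR-122, with miR-122b, held 69.2% to 87.7% of control reads and 11.7% to 15.3% of palmitic acid reads, so reads of other miRNAs numbered 29347 to 80765 in controls against 534259 to 676743 under palmitic acid. Control replicate 2 had the most reads of the controls, 657897, and the highest miR-122 share, 87.7%. Because of this, 3 scales are used: the deposited values, the reads scaled to a library total of 1000000 (RPM), and the same with miR-122 and miR-122b left out of the total (non-122 RPM). Across the 181 miRNAs that passed the filter (3 or more libraries with an adjusted count of 10 or more), the limma test on deposited values called 76 higher and 26 lower under palmitic acid. That split was 89 and 8 with RPM, 65 and 40 after the libraries were centred on their median tested miRNA, and 57 and 41 on the non-122 RPM scale.

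miR-423-3p was the most abundant of the 7 in every control library and had the lowest log2 difference of all 181 tested miRNAs. Its deposited log2 values stood at 11.165, 10.771 and 11.787 in the control libraries, in the order of replicates 1, 2 and 3, against 5.533, 4.4 and 5.763 under palmitic acid. They rested on 741, 645 and 1639 reads in controls against 93, 58 and 90 reads under palmitic acid. Fewer reads were found in every palmitic acid library than in any control library, although 2 of the 3 control libraries were smaller than every palmitic acid library. The adjusted count was 2525 ± 915 in controls against 39.6 ± 17.3 under palmitic acid (SD, n = 3 each), 63.8 times higher in controls. The log2 difference was -6.01 (SE 0.51). In RPM the ratio of means was 45.0, and in non-122 RPM it was 164. Fewer vesicles that carry a miRNA and less of it per vesicle cannot be told apart in these libraries.

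miR-423-5p, cut from the same hairpin, differed by less. Its deposited log2 values stood at 8.853, 8.631 and 9.093 in controls against 4.545, 6.032 and 5.87 under palmitic acid, a log2 difference of -3.38 (SE 0.57). The read numbers were 149, 146 and 253 in controls against 46, 185 and 97 under palmitic acid. On the deposited scale the groups did not overlap, but the read numbers did, and so did the RPM. These were 1564, 222 and 1002 in controls against 57.6, 243 and 158 under palmitic acid, so palmitic acid replicate 2 stood above control replicate 2. In non-122 RPM the groups were apart, at 5077, 1808 and 4810 against 68.0, 275 and 182.

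miR-674-3p had rank 3 from the lowest among the tested miRNAs, with a log2 difference of -4.37 (SE 0.95). Its deposited log2 values stood at 8.57, 5.93 and 8.259 in controls against 3.71, 3.033 and 2.895 under palmitic acid, from 123, 22 and 142 reads and from 25, 21 and 11 reads. Control replicate 2 was the lowest control on each scale. In RPM it came close to the palmitic acid libraries, at 33.4 against 31.3, 27.6 and 17.9, while the other controls had 1291 and 563. In non-122 RPM the values were 4191, 272 and 2700 in controls against 36.9, 31.2 and 20.6 under palmitic acid.

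miR-674-5p went the other way. No read of it was recovered from any control library, and 9, 19 and 13 reads from palmitic acid libraries. Its deposited values lay above all controls, as did those of 48.6% of the tested miRNAs. The deposited control values of 0.355, 0.303 and 0.221 are what the adjustment gives to 0 reads, so neither their spread nor the log2 difference of 2.53 is a measured one. With 0 of 1005572 control reads, 3 reads give an upper limit of 2.98 RPM. Against that limit, the 18.9 RPM of the pooled palmitic acid reads was at least 6.32-fold higher. The limit depends on the scale: for the 162712 control reads other than miR-122, 3 reads are 18.4 non-122 RPM, and the palmitic acid level of 21.8 was at least 1.18-fold higher. For single control libraries, in the order of replicates 1, 2 and 3, the upper limits were 31.5, 4.56 and 11.9 RPM, beside 11.3, 24.9 and 21.2 RPM in the palmitic acid libraries. A difference from control replicate 1 was thus not detectable at its depth, nor one between control replicate 3 and palmitic acid replicate 1. In non-122 RPM the limits were 102, 37.1 and 57.0, all above the 13.3, 28.3 and 24.3 of the palmitic acid libraries, so on that scale no single control library showed a detectable difference. Such limits, like the intervals given further on, hold for counting error alone, because PCR copies of a molecule are counted as separate reads.

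miR-128-3p had deposited log2 values of 8.395, 6.218 and 7.905 in controls against 4.206, 3.361 and 3.378 under palmitic acid, a log2 difference of -3.86 (SE 0.86). It had 109, 27 and 111 reads in controls against 36, 27 and 16 under palmitic acid. As with miR-674-3p, control replicate 2 was the low control. In RPM its value of 41.0 lay below the 45.1 of palmitic acid replicate 1, so the groups overlapped on that scale. The other controls were at 1144 and 440 RPM, and the other palmitic acid libraries at 35.4 and 26.1. In non-122 RPM the groups were apart, at 3714, 334 and 2110 against 53.2, 40.2 and 29.9. No read was recovered in any of the 6 libraries for the opposite arms, miR-128-1-5p and miR-128-2-5p.

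miR-139-5p had deposited log2 values of 5.982, 7.844 and 7.416 in controls against 3.273, 2.231 and 3.74 under palmitic acid, a log2 difference of -4.00 (SE 0.91). The reads behind them were 20, 85 and 79 in controls against 18, 11 and 21 under palmitic acid. On the deposited scale its lowest control was replicate 1, not replicate 2. In RPM it stood at 210, 129 and 313 in controls against 22.5, 14.4 and 34.2 under palmitic acid, and the groups did not overlap. The read numbers did, since the lowest control had fewer reads than palmitic acid replicate 3.

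miR-139-3p, the weaker arm, had 2, 6 and 28 reads in controls against 0 in each palmitic acid library. Its deposited log2 values stood at 2.913, 4.088 and 5.882 in controls against 0 under palmitic acid. The 0 of 2174216 palmitic acid reads allows up to 1.38 RPM, so the pooled palmitic acid level was at least 25.9-fold lower than the 35.8 RPM of the pooled controls. In non-122 RPM it was at least 139-fold lower. Of the 36 control reads, 28 came from control replicate 3. miR-139-3p and miR-674-5p did not pass the filter, the other 5 did.

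**Figure D1:**
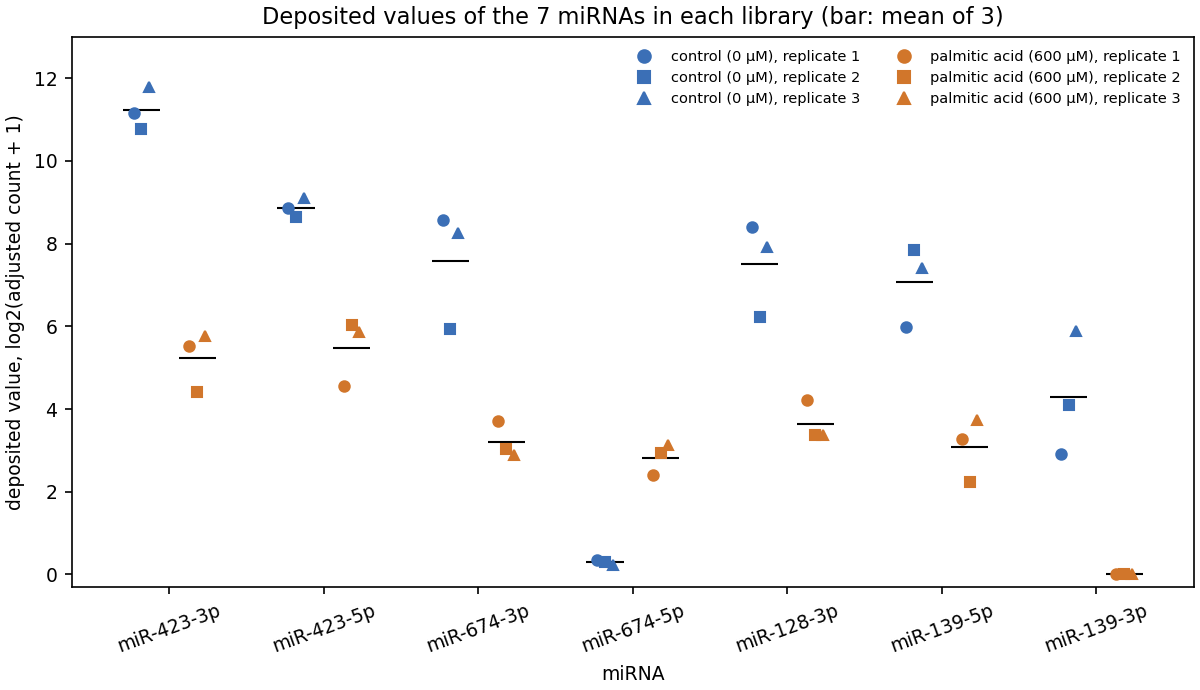
Deposited values, log2(adjusted count + 1), of the 7 miRNAs (x axis) in the 3 control libraries (blue) and the 3 palmitic acid libraries (orange), with a black bar at each group mean. Palmitic acid libraries lie below all controls for 6 miRNAs and above them for miR-674-5p, whose control values stand for 0 reads.

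Over all 7 miRNAs, whether or not they passed the filter, the median log2 difference was -4.00, beside 1.94 for the 181 tested miRNAs. On the deposited scale every palmitic acid library lay below every control library for 6 of the 7. The same held for 19.3% of the tested miRNAs, and 14.4% were called lower by limma (adjusted p below 0.05). On the RPM scale 4 of the 7 had separate groups with lower values under palmitic acid, beside 5.52% of tested miRNAs, and in non-122 RPM it was 6, beside 28.7%. In read numbers it was 2, miR-423-3p and miR-139-3p, beside 1.66%. As the 7 were chosen on this contrast, nothing is read from these shares.

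**Figure D2:**
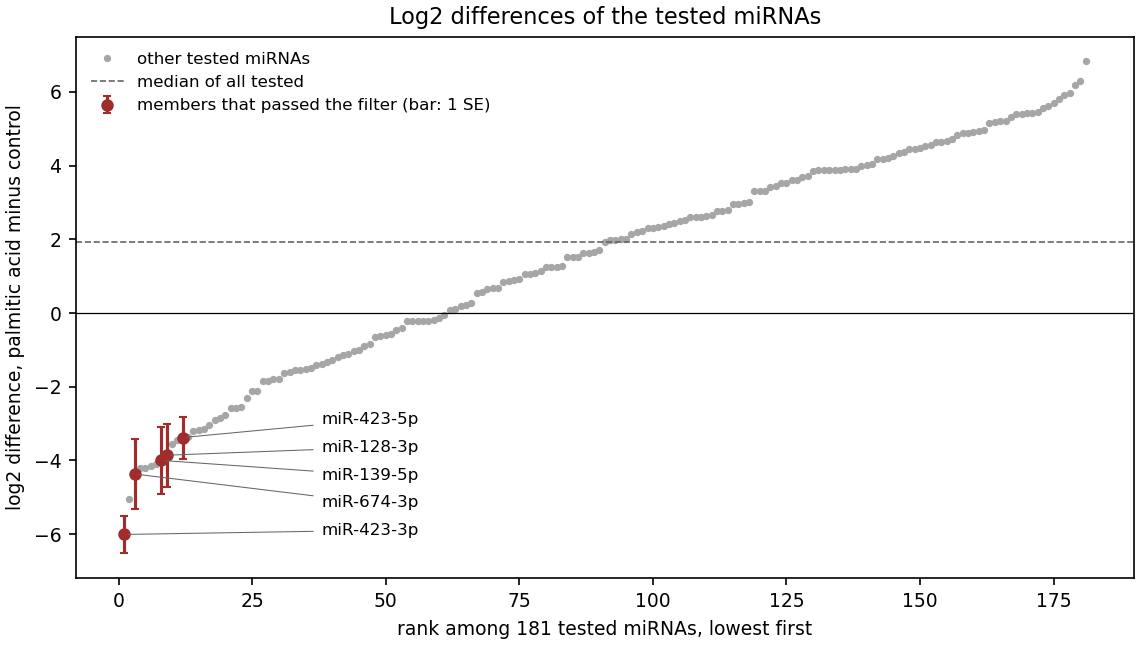
Log2 difference, palmitic acid minus control, of the 181 tested miRNAs (y axis) by rank from the lowest (x axis), with the 5 members that passed the filter in red and their SE as bars. The 5 lie between -6.01 and -3.38, whereas the median of all tested miRNAs, drawn as a dashed line, is 1.94.

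Among the tested miRNAs, the 5 that passed the filter held the ranks 1, 3, 8, 9 and 12 from the lowest. Those in between were miR-206-3p, miR-486a-5p, miR-7075-3p, miR-6239, miR-5119 and both miR-122-5p and miR-122b-3p, none of them from these hairpins. Just below miR-423-5p, at rank 13, stood miR-10a-5p with a log2 difference of -3.36 (SE 0.64).

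Together the 7 miRNAs held 1144, 931 and 2252 reads in the control libraries, in the order of replicates 1, 2 and 3, against 227, 321 and 248 under palmitic acid. Their share of control reads, with Clopper-Pearson 95% bounds, came to 1.2% (1.13 to 1.27), 0.142% (0.133 to 0.151) and 0.892% (0.856 to 0.930). With palmitic acid it was 0.0284% (0.0248 to 0.0324), 0.0421% (0.0377 to 0.0470) and 0.0404% (0.0356 to 0.0458). The palmitic acid libraries lay closer together, although the interval of replicate 1 did not overlap the other two, and the control share varied more, at 0.745% ± 0.545 against 0.0370% ± 0.00748 (SD, n = 3 each). Of reads other than miR-122 the share was 3.11% ± 1.71 in controls against 0.0426% ± 0.00785 under palmitic acid. miR-423-3p made up 64.8%, 69.3% and 72.8% of these reads in controls against 41.0%, 18.1% and 36.3% under palmitic acid.

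The order of the members by mean RPM also differed between the groups. All 7 are 21 to 23 bases long, so reads were compared without a length correction. In controls miR-423-3p led with 5084 ± 3611, followed by miR-423-5p with 929 ± 674, miR-674-3p with 629 ± 631, miR-128-3p with 542 ± 558, miR-139-5p with 217 ± 92.1 and miR-139-3p with 47.0 ± 55.7 (SD, n = 3 each). The neighbours miR-423-5p, miR-674-3p and miR-128-3p lay within each other's spread, and miR-139-5p overlapped miR-674-3p and miR-128-3p. In control replicate 2 miR-139-5p, at 129 RPM, stood above miR-128-3p at 41.0 and miR-674-3p at 33.4. With palmitic acid miR-423-5p stood first at 153 ± 92.8 and miR-423-3p second at 113 ± 35.4, with overlapping values. They were followed by miR-128-3p at 35.5 ± 9.49, miR-674-3p at 25.6 ± 6.89, miR-139-5p at 23.7 ± 9.95 and miR-674-5p at 19.1 ± 7.07, and neighbours in this order overlapped from miR-128-3p on.

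The members did not vary together in every respect across libraries. miR-128-3p and miR-674-3p stayed close, with a read ratio of 0.886, 1.23 and 0.782 in controls against 1.44, 1.29 and 1.45 under palmitic acid. The ratio of miR-139-5p to miR-128-3p ranged far more, at 0.183, 3.15 and 0.712 in controls against 0.5, 0.407 and 1.31 under palmitic acid. The ratio of miR-423-3p to miR-674-3p was 6.02, 29.3 and 11.5 in controls against 3.72, 2.76 and 8.18 under palmitic acid. Such ratios within a library do not depend on its scale.

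The balance of the 2 arms of a hairpin is also free of the library scale. For miR-423 the 3p arm held 83.3% (95% interval 80.6 to 85.7), 81.5% (78.7 to 84.2) and 86.6% (85.0 to 88.1) of the reads of both arms in control replicates 1, 2 and 3. With palmitic acid it held 66.9% (58.4 to 74.6), 23.9% (18.7 to 29.7) and 48.1% (40.8 to 55.5). The control libraries lay closer together, although the intervals of replicates 2 and 3 did not overlap. The 3 palmitic acid intervals did not overlap one another, and none reached the control range. miR-423-5p was the more abundant arm in palmitic acid replicate 2, and in replicate 3 the 2 arms were near equal, with 90 reads of 3p and 97 of 5p. On the log2 scale of 3p over 5p reads, with 0.5 added to each, the balance was 2.38 ± 0.28 in controls against -0.25 ± 1.34 under palmitic acid (SD, n = 3 each), a difference of -2.64.

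miR-674 reads in controls were all from the 3p arm, 123, 22 and 142 of them, so 5p could hold up to 2.44%, 13.6% and 2.11% there by the limit that 0 reads allow. With palmitic acid the 5p arm held 26.5% (95% interval 12.9 to 44.4), 47.5% (31.5 to 63.9) and 54.2% (32.8 to 74.4) of 34, 40 and 24 reads. The 3p arm thus kept its lead in replicate 1, with 25 reads against 9. In replicates 2 and 3, with 21 reads against 19 and 11 against 13, the intervals span an even split, so neither arm led clearly. In miR-139 the 3p arm held 9.09% (1.12 to 29.2), 6.59% (2.46 to 13.8) and 26.2% (18.1 to 35.6) in controls against 0 of 18, 11 and 21 reads under palmitic acid. These 0 reads allow a share of up to 16.7%, 27.3% and 14.3%, so a difference from control replicates 1 and 2 was not detectable at this depth. Nor was one between control replicate 3 and palmitic acid replicate 2.

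**Figure D3:**
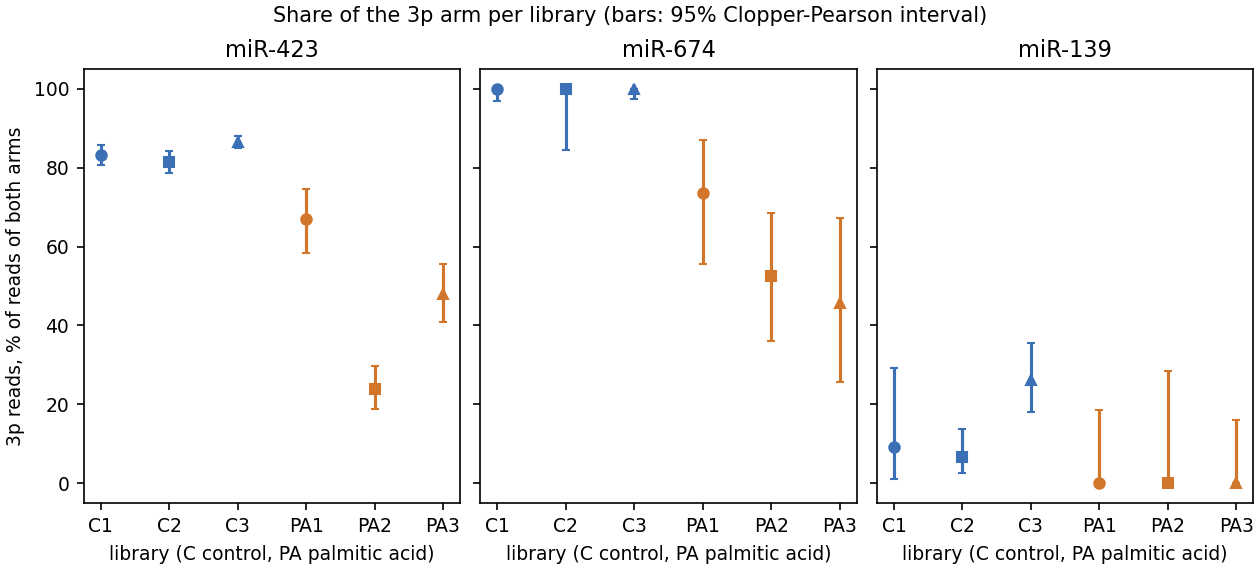
Share of the 3p arm in the reads of both arms (y axis, percent) in each library (x axis) for miR-423, miR-674 and miR-139, with 95% Clopper-Pearson intervals as bars. For miR-423 the controls lie between 81.5% and 86.6% and the palmitic acid libraries between 23.9% and 66.9%, and for miR-674 all controls are at 100%.

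A lower log2 balance of 3p over 5p reads under palmitic acid was common among hairpins. In 17 other hairpins with a mean of at least 10 reads for each arm and at least 10 reads of both arms in every library, the log2 balance moved toward 5p in 14 and toward 3p in 3, with a median difference of -2.0 and a range of -4.93 to 2.98. The groups did not overlap in 58.8% of them, and in 3 the stronger arm changed. Some of these balances rest on the 0.5 added to an arm without reads. In control replicate 1, miR-126a had 282 reads of 3p and 0 of 5p. How far this, and the fewer control reads other than miR-122, shaped the split was not tested. The miR-423 difference of -2.64 was the seventh lowest of 18, within that range. The reads of miR-674 and miR-139 were too few for the same set.

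**Figure D4:**
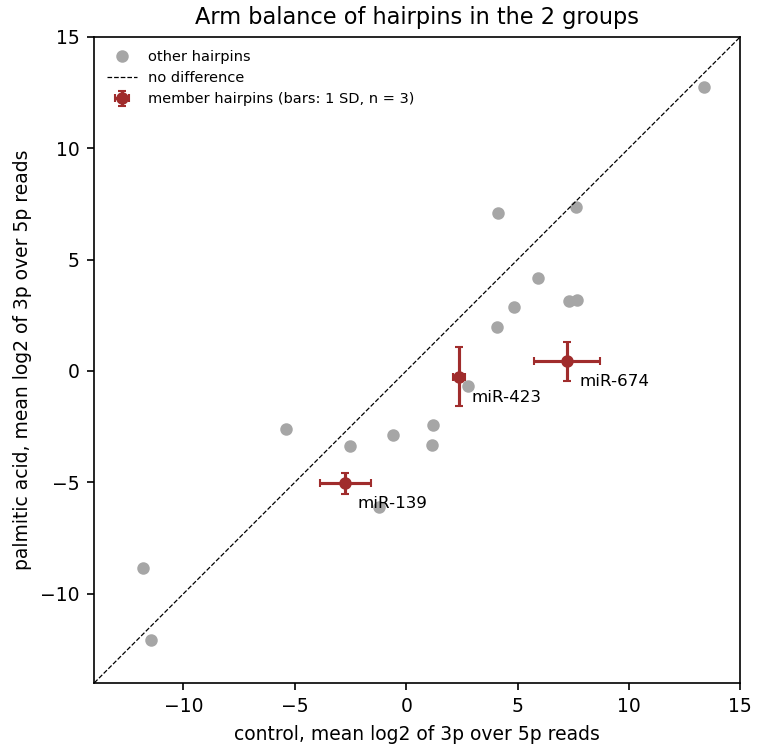
Mean log2 ratio of 3p to 5p reads in control libraries (x axis) and palmitic acid libraries (y axis) for 17 other hairpins (grey) and for miR-423, miR-674 and miR-139 (red, with 1 SD as bars, n = 3). Points under the dashed line of no difference have a lower mean log2 ratio under palmitic acid: all 3 red points and 14 of the 17 grey points. The miR-674 and miR-139 points rest on the value added to an arm without reads, as do some grey points in part.

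Next, miRNAs related to the members by seed were compared. No other miRNA of the table shared the seed of miR-423-3p, miR-674-3p, miR-128-3p or either miR-139 arm, among those with a RefSeq sequence. miR-6921-5p, with the seed of miR-423-5p, had no reads. Of 2 miRNAs with the seed of miR-674-5p, miR-1947-3p had none, and miR-3473d had 0 reads in controls against 7, 8 and 0 under palmitic acid. The letters of the miR-128-3p seed also stand at bases 3 to 9 of miR-27a-3p and miR-27b-3p, shown here with their own seeds in capitals.
miR-27a-3p: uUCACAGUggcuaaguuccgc
miR-27b-3p: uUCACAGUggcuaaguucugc

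The miR-27 pair, known as inhibitors of fat cell formation, did not go down with miR-128-3p on the deposited scale. miR-27b-3p had 179, 256 and 296 reads in controls against 3071, 3439 and 3158 under palmitic acid. It rose by 1.26 (SE 0.34, limma adjusted p = 0.0137, higher in 3 of 3 palmitic acid libraries), less than the median of 1.94 over all tested miRNAs. Of these, 42% were called higher, and 48.6% had every palmitic acid library above every control library. On the non-122 RPM scale the miR-27b-3p difference was 0.11 (limma adjusted p = 0.797), and after centring 0.47 (limma adjusted p = 0.379). Without palmitic acid replicate 1 the adjusted p was 0.0502, and without replicate 3 it was 0.0507. miR-27a-3p, with deposited log2 values of 7.008, 7.677 and 7.657 in controls against 8.233, 8.122 and 8.063 under palmitic acid, did not pass (0.69, SE 0.42, adjusted p = 0.185). The miR-27a-3p difference was 1.67 with RPM (limma adjusted p = 0.0963), -0.10 after centring (0.879) and -0.45 in non-122 RPM (0.413). miR-27a-3p and miR-27b-3p differ at few bases, so their single values are uncertain.

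The members were rich in G and C. The GC content of the mature sequences ran from 47.6% in miR-128-3p to 68.2% in miR-139-3p, with 65.2% in miR-423-3p, and was at or above 50% in 6 of 7, beside a median of 45.5% over the 161 tested miRNAs with a sequence. Across these, the log2 difference was lower at higher GC (Spearman rho = -0.39, Pearson r = -0.38, a description across miRNAs that share the 6 libraries). The median was 0.65 in the 61 miRNAs with a GC content of 50% or more and 2.62 in the 100 below. The part of GC content in the falls of the members was not tested.

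The miRNAs whose pattern was most like the members were found by the root mean square distance between centred log2 profiles over the 6 libraries, with the mean profile of the 5 members that passed the filter as reference. The closest of 176 were miR-6239 at 0.17, miR-206-3p, a striated muscle miRNA, at 0.61, miR-125b-5p at 0.80 and miR-676-3p at 0.87, beside a median distance of 3.41. miR-6239 had 6812, 5155 and 15564 reads in controls against 2902, 2376 and 2461 under palmitic acid. Like miR-423-3p, it was highest in control replicate 3 and lowest among controls in replicate 2. miR-206-3p had 221, 63 and 258 reads in controls against 40, 20 and 17 under palmitic acid, the low control 2 being shared with miR-674-3p and miR-128-3p. The reference profile was chosen for its fall, so nothing is read from the falls of these 4.

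Markers of the cell types that a hepatocyte vesicle preparation could hold were counted beside the members, with 14.4% of tested miRNAs lower and 42% higher as background (limma, adjusted p below 0.05). All 5 hepatocyte markers were measured. On the deposited scale miR-101a-3p and miR-192-5p rose, miR-122-5p fell, and miR-194-5p and miR-148a-3p did not pass. The median of the 5 was 0.83. In non-122 RPM miR-194-5p was called lower (-1.38, limma adjusted p = 0.0493), and the miR-192-5p call was lost (0.79, adjusted p = 0.1). With RPM miR-148a-3p was called higher (1.80, limma adjusted p = 0.00337). The miR-122-5p and miR-192-5p calls are not firm, as each was lost without any 1 palmitic acid library. That of miR-192-5p was also lost without control replicate 1 (limma adjusted p = 0.0852) or 3 (0.0834) and after centring (0.128). With all 6 libraries, miR-122-5p was still called lower with RPM (limma adjusted p = 2.76e-05), after centring (0.00435) and in non-122 RPM (3.21e-04). Without miR-122-5p the hepatocyte markers held 22.9% to 67.5% of reads other than miR-122 in controls against 25.6% to 41.6% under palmitic acid.

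Of the erythroid and striated muscle markers, 1 of 3 each was called lower. Of 3 erythroid markers 2 were tested: miR-486a-5p fell by 4.20 (SE 0.95, limma adjusted p = 0.00557, lost with RPM as the scale at 0.0670) and miR-451a stood at -3.20 (adjusted p = 0.0764, but 0.0195 after centring), and miR-144-3p had no reads. Their sum ran from 0.0310% to 1.85% of reads other than miR-122 in controls and from 0.00281% to 0.0181% under palmitic acid. Of 3 muscle markers miR-206-3p alone was tested and fell by 5.06 (SE 0.80, limma adjusted p = 0.00105); it is also among the 4 miRNAs most like the members, picked for their likeness to a falling profile. In the same list, miR-133a-3p had no reads and miR-1a-3p had 4, all in control replicate 1. The sum of the 3 was 0.0780% to 0.767% in controls against 0.00298% to 0.00591% under palmitic acid. Whether RNA of such cells has a part in the member values was not tested.

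Because miR-128 is known from neurons, neuronal markers were counted as well. Of 5, miR-7b-5p alone was tested and rose by 5.71 (SE 0.50, limma adjusted p = 3.61e-05), although miR-7a-5p is so similar that reads of the pair may be mixed. miR-9-5p had 256, 0 and 92 reads in controls against 10, 0 and 1 under palmitic acid, so it shared the low control replicate 2 with miR-128-3p. miR-124-3p, the defining neuronal marker, had 6 reads in control replicate 1 and 0 elsewhere. miR-138-5p and miR-219a-5p had at most 4 reads in any library. The summed share of the list was 0.0210% to 0.947% of reads other than miR-122 in controls against 0.528% to 0.761% under palmitic acid.

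Of the 6 immune and Kupffer cell markers 2 were tested, miR-146a-5p, which was lower by limma (adjusted p = 0.0332, but 0.335 in RPM, and between 0.0665 and 0.0924 without any 1 palmitic acid library or control replicate 1 or 2), and miR-155-5p, which did not pass (adjusted p = 0.176, and 0.00727 without control replicate 1). The list held 0.0989% to 0.525% of reads other than miR-122 in controls against 0.0232% to 0.0451% under palmitic acid. The 1 tested of 2 endothelial markers, miR-126a-3p, and the 2 tested of 4 stellate cell and fibroblast markers, miR-143-3p and miR-199a-3p, did not pass on the deposited scale. In non-122 RPM all 3 were called lower: miR-126a-3p turned from 0.07 to -1.08 (limma adjusted p = 0.0426), miR-143-3p stood at -2.04 (0.0329) and miR-199a-3p at -2.79 (0.0439). After centring, miR-143-3p (-1.68, adjusted p = 0.0220) and miR-199a-3p (-2.42, adjusted p = 0.0266) were called lower as well. These lists held 0.705% to 1.64% and 0.128% to 0.699% in controls against 0.442% to 0.562% and 0.0525% to 0.0708% under palmitic acid.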

How the data were processed

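Small RNA of 6 vesicle libraries, 3 per group, was extracted with Trizol and prepared with a NEBNext Multiplex small RNA kit, per the labels. Bowtie2, bedtools, GRCm38 and mm10 appear in the submitters' processing notes; how reads were counted is not given in the sources used here. All deposited values are on a log2 scale, although the table is named as raw counts. They match log2(adjusted count + 1), with counts adjusted by negative binomial quantiles toward 1 shared scale (fitted dispersion 1.39), a step that no label mentions. Of 1976 rows, 918 are at 0 throughout and in 108 no read was recovered although values above 0 stand there, so further libraries, not analysed here, may have shaped the adjustment. Its inversion gave whole reads within 0.0015 (log2) for 100% of 5827 values whose neighbouring read numbers were at least 0.02 apart. Higher read numbers, such as those of miR-423-3p in controls, lie closer together and had no such check. On data simulated with the same fitted adjustment, 100% of read numbers came back within 0.2%. That shows only that the inversion works where this adjustment holds.

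Because these are log2 values, limma 3.58.1 under R 4.3.3, with a variance trend and a group term, was fitted to the 181 miRNAs that reach an adjusted count of 10 in 3 or more libraries, two-sided, with Benjamini-Hochberg adjustment at 0.05. On data simulated for this comparison (181 miRNAs, 90 changed), the fit found 6.67%, 36.7% and 83.3% of changes of 1, 2 and 4 (log2), and 7.32% of its calls fell on miRNAs left unchanged. A log2 difference understates the change of low miRNAs. As no label says that libraries came from separate mice, p-values rest on a spread between libraries that may be technical. Arm balance used recovered reads; the read minimum for the comparison hairpins was set after the data were seen. The members and lists were chosen with earlier results of these data known. Named are the 7 members, the opposite arms of their hairpins, seed relatives, the 4 most alike tested miRNAs and tested markers of hepatocyte, erythroid, striated muscle, neuronal, immune and Kupffer, endothelial and stellate cell lists; markers that were not tested, and the neighbours in rank, were named after their values were seen.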

Additional observations from a re-analysis of the deposited data

How the results depend on the processing

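The members were chosen on this contrast, and miR-674-5p and miR-139-3p have 0 reads throughout 1 group, so their signs say nothing about stability. Over 15 alternatives (scalings, filters, a pseudocount of 5, no variance trend, a replicate block, each library left out), the log2 difference ran from -7.18 to -5.06 for miR-423-3p, -4.54 to -2.42 for miR-423-5p, -5.61 to -3.50 for miR-674-3p, 1.09 to 4.46 for miR-674-5p, -5.07 to -2.96 for miR-128-3p, -5.26 to -3.13 for miR-139-5p and -7.13 to -2.31 for miR-139-3p. Their median moved to -5.26 with reads other than miR-122 as the scale, and that of all tested miRNAs lay between 1.15 and 2.99 over the scalings. miRNAs called lower, 26 of 181 in the report, numbered 8 with RPM, 40 after centring and 41 with reads other than miR-122. Without a filter 60 of 1058 were called lower, so that number cannot be set directly against the 26. Those called higher numbered 76 in the report and 50 under the filter at 50, which left fewer miRNAs to test. With 5 added to each read number, the arm difference became -3.65 for miR-674 (from -6.75) and -0.01 for miR-139 (from -2.31), so both rest on the value given to 0 reads. The members' share, 0.708 percentage points higher in controls, was 3.07 points higher among reads other than miR-122. With that scale miR-126a-3p turned from 0.07 to -1.08. miR-451a was lower after centring too (-3.99, adjusted p = 0.0195), and miR-148a-3p was higher with RPM (1.80, adjusted p = 0.00337). The cause of these shifts was not tested. Same-numbered libraries deviated together with correlations of 0.21, 0.15 and 0.04. Such small values cannot settle whether the libraries were paired. The replicate block gave 83 higher and 28 lower. With it the miR-122-5p call was lost (limma adjusted p = 0.105) and miR-451a came below the threshold (limma adjusted p = 0.0222). Control replicate 3 deviated most like palmitic acid replicate 2 (0.06), the other 5 libraries most like their own number. Low read numbers limit miR-139-3p and miR-674-5p most.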
